A study of Ambystoma mexicanum with 12 samples.

Results

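The subject of the comparison is the transcriptome of axolotl spinal cords that were injured and given an inhibitor of the microRNA miR-200a, set against that of uninjured spinal cords. It covers every gene whose level averaged 1 TPM or more over the 6 libraries compared (TPM, transcripts per 1000000, is a relative abundance corrected for length). That left 14067 of 15091 genes, and 1024 were below. The 4 dpi inhibitor group holds 3 libraries, numbered 5, 6 and 7. In these animals a chemically synthesized miR-200a inhibitor was injected into the central canal and electroporated, a piece of cord was cut out, and the area of the lesion was collected 4 days post injury (dpi). The methods of the study place electroporation on the injury day and again 2 days afterwards. The uninjured group also holds 3 libraries, numbered 1 and 5, with 1 left without a number. The labels describe them as uninjured spinal cord and do not say whether these animals were injected or electroporated. The titles of libraries 1 and 5 carry the tag Cntl, whereas that of the unnumbered library carries RNA instead. What these tags stand for in uninjured cords is not given, so whether the cords of this group were handled alike is not known. The remaining 6 libraries of the series were kept in the fit to estimate the spread of each gene. They are 3 from injured cords with a scrambled control inhibitor (4 dpi control, numbered 1, 5 and 6) and 3 from uninjured cords with the miR-200a inhibitor (uninjured inhibitor, numbered 5, 6 and 7). All animals were white axolotls (Ambystoma mexicanum). By the labels they were 2 to 3 cm long and tissue of 10 animals was pooled for each RNA sample, whereas the methods of the study give a smaller pool and longer animals. A library is therefore a pool, the p-values measure the spread between these pools, and no value belongs to 1 animal. The RNA came from the whole dissected piece and not from the electroporated cells alone. Injury, the inhibitor and possibly the injection and electroporation differ at once between the groups and cannot be told apart in this comparison.

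Salamanders regrow a functional spinal cord after it is cut. Ependymoglial cells, which line the central canal, carry GFAP and many bear motile cilia, divide and bridge the gap, and axons then grow along them. In mammals, by contrast, astrocytes at the lesion turn reactive and build a scar rich in chondroitin sulfate proteoglycans. Phagocytes enter the injured tissue in both. miR-200a belongs to a family of small RNAs that bind messenger RNAs and lower their level or translation, known above all for keeping epithelial cells epithelial through the ZEB transcription factors. The RNA measured here is messenger RNA, so miR-200a itself was not followed.

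Values in the text are TPM as deposited, in the order library 1, the unnumbered library and library 5 for uninjured cords, and library 5, 6 and 7 for 4 dpi inhibitor cords. For short, the 4 dpi inhibitor cords are also called injured cords below, though they were given the inhibitor as well. Gene names are those of the human protein that matched an assembled axolotl contig best, so axolotl genes that share a best match share 1 value. Of the names tested, 11660 (82.9%) are also symbols or synonyms of axolotl genes in RefSeq (assembly UKY_AmexF1_1). Of the 182 names that the rule for naming genes gave, 138 are. Names that are not include MRC1, CXCR1, PRG2, C5AR1, CD2, NES, TPPP3, S100A11, OTOS, SLC6A13 and PTGDS, whose identity rests on the human match alone. TPM sum to 1000000 in each library and the depth is unknown, so no counting error is given. The tissue carried the markers of spinal cord. In the uninjured libraries the neuronal gene STMN2 stood at 6007, 1195 and 2560.4 TPM, the myelin gene MBP at 5699, 498 and 2588 TPM and the glial gene GFAP at 2335, 449 and 1041 TPM. Muscle genes were also present and held 1.83, 6.94 and 5.6% of TPM in those libraries. Uninjured library 1 stood apart in holding the most neural and the least muscle RNA of its group. The 50 most abundant genes held 17.3% of its TPM, against 27.2% to 29.1% in the other uninjured libraries and 26.9% to 31.3% in the 4 dpi inhibitor libraries.

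Because TPM are relative, each gene was tested with limma both after a correction of each library by its median ratio to a reference of all libraries (scaled) and as deposited. An adjusted p under 0.05 counts as a change. On the scaled values 2293 genes rose (16.3% of those tested) and 1653 fell (11.8%), while as deposited 1295 rose (9.21%) and 4318 fell (30.7%). Over all genes the median log2 fold change came to -0.16 scaled and -0.82 as deposited, and genes sit about 0.67 higher on the scaled values. Calls that hold on both do not rest on the choice between them. There were 1295 higher (9.21%) and 1653 lower (11.8%) on both scales, and unless stated otherwise "rose" and "fell" refer to these, and fold changes are scaled, on log2(TPM / factor + 0.1). In parentheses the log2 fold change comes first, then its standard error (SE) where given, then limma's p adjusted by the Benjamini-Hochberg method over all 14067 genes. Among all genes tested, 1748 (12.4%) had every 4 dpi inhibitor value above every uninjured value in TPM as deposited and 5837 (41.5%) had every one below, so that separate ranges are common, above all for genes that fell. Most list members named below were picked by their p-values. Separate ranges among them follow in part from that choice and are no further evidence. When each of the 12 libraries was left out in turn, 727 of the 1295 (56.1%) and 586 of the 1653 (35.5%) were called in all 12 fits. Without 4 dpi inhibitor library 7 the counts were 789 higher and 783 lower, without library 5 they were 814 and 820, and without library 6 the lower count was 880. The change of a gene also went with its level, as the plot of change against level shows. The median scaled log2 fold change was -0.34 for genes of 1 to 2 TPM, -0.01 for genes of 20 to 50 TPM and 1.44 for the 324 genes of at least 500 TPM, of which 56.2% rose and 5.56% fell. The same ranges gave -0.97, 0.05 and 1.66 between uninjured inhibitor and uninjured libraries, and -0.26, 0.02 and 0.32 between 4 dpi control and uninjured libraries. These comparisons share the uninjured libraries, and the part of this dependence in the results on abundant gene families was not tested.

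**Figure D1:**
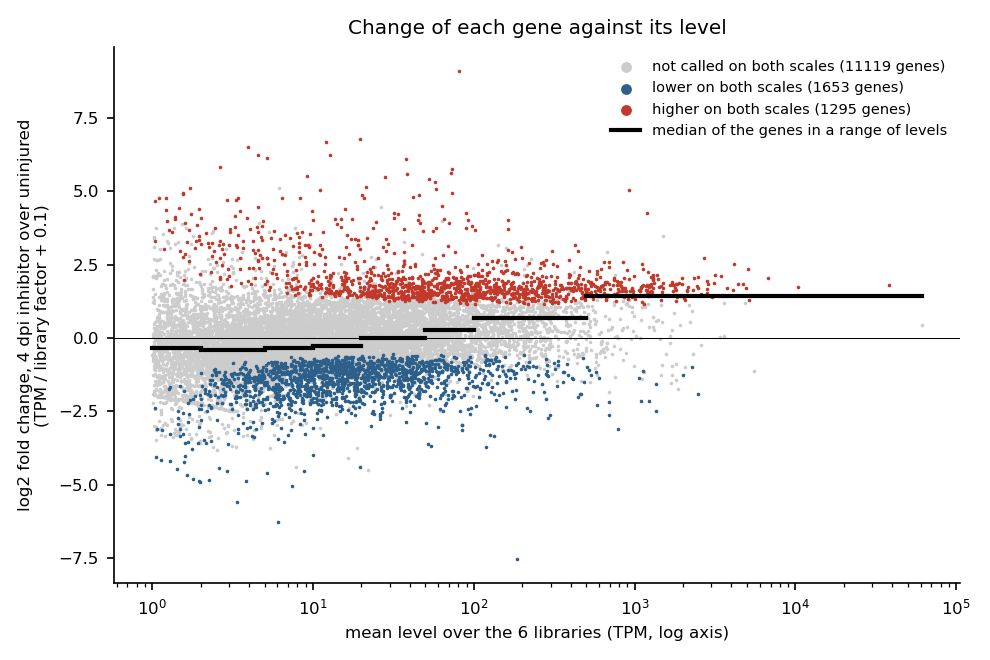
Each point is 1 of the 14067 genes, with its mean over the 6 libraries (TPM, log axis) against its log2 fold change between 4 dpi inhibitor and uninjured cords. Red points are the 1295 genes higher and blue points the 1653 genes lower on both scales, and the black lines, medians over genes in ranges of level, climb from -0.34 to 1.44.

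Many genes of phagocytes rose. Of 32 listed genes of microglia and macrophages 29 were tested, of which 18 rose (62.1%) and 0 fell. Percentages beside such counts are of the list's tested members and are to be read against the 9.21% of all genes that rose and the 11.8% that fell. The median log2 fold change of the list was 2.77 scaled, 2.10 as deposited and 3.11 after quantile normalization. LYZ, which encodes lysozyme of granulocytes and macrophages, stood at 77.9, 89.5 and 87.5 TPM in uninjured cords and at 1609.6, 1744 and 1906 TPM in 4 dpi inhibitor cords. The lowest injured value was far above the highest uninjured value (limma, log2 fold change 5.04, SE 0.31, adjusted p = 2.21e-06). CYBB, the membrane subunit of the phagocyte NADPH oxidase, was at 14.7, 15.5 and 10.3 TPM and then at 129.6, 199 and 166 TPM (4.28, adjusted p = 2.21e-06). LCP1, an actin-bundling protein of leukocytes, was at 10.5, 7.51 and 8.13 TPM and then at 81.2, 92.1 and 78.9 TPM (3.94, adjusted p = 3.27e-07), and the mannose receptor MRC1, with which macrophages take up glycoproteins, at 2.65, 2.31 and 2.46 TPM and then at 29.5, 28.4 and 24.3 TPM (4.07, adjusted p = 2.21e-06). None of these 3 genes overlapped between the groups. CTSB, the lysosomal protease cathepsin B and the most abundant member of the list, was at 435, 408 and 439 TPM and then at 909, 1336 and 945 TPM (1.97, adjusted p = 0.00166). When libraries were left out in turn, 16 to 19 members rose. In bulk tissue, more cells of a type and more RNA per cell cannot be told apart, and this holds for every cell type below.

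Granulocyte genes rose as well. Of 17 listed genes 11 were tested, 6 rose (54.5%) and 1 fell (9.09%), with a median of 3.76 scaled, 3.09 as deposited and 3.82 after quantile normalization. PRG2, the major basic protein of eosinophil granules, was listed at 0 in 2 uninjured libraries and at 7.16 TPM in library 1, and at 134, 156 and 186 TPM in 4 dpi inhibitor cords (adjusted p = 0.000402). CXCR1, the receptor that draws neutrophils to interleukin-8, was at 2.37, 4.81 and 0.791 TPM and then at 32.2, 43.8 and 40.3 TPM (log2 fold change 4.77, SE 0.54, adjusted p = 0.000326). The ranges of both genes were apart. The 1 granulocyte gene that fell was EPX, eosinophil peroxidase, at 3.66, 1.54 and 2.1 TPM and then 0, 0 and 0.436 TPM (adjusted p = 0.0329). The RNA under these 2 names of eosinophil granule proteins, PRG2 and EPX, thus moved in opposite directions. PRG2 and CXCR1, like MRC1 above and C5AR1 below, are not among the axolotl RefSeq names. Their identity rests on the human match alone. EPX was named after its values were seen, and its call was lost in 5 of the 12 fits that left out 1 library (uninjured 1 and 5, uninjured inhibitor 5, 4 dpi inhibitor 5 and 6). Of 24 listed lymphocyte genes only 8 were among the deposited names, and 5 of these passed the filter on low values. The absence of the other names says nothing about their level. Of the 5 tested, 0 were called on both scales (limma), and IKZF1, named after its values were seen, rose on the scaled values alone. Their most abundant member, the T cell adhesion receptor CD2, was at 15.7, 20.4 and 15.02 TPM in uninjured and at 12.1, 17.5 and 15.3 TPM in 4 dpi inhibitor cords (log2 fold change 0.48, SE 0.28, adjusted p = 0.221; -0.19 as deposited).

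The 15 genes with the largest increases were chosen by a rule on size, separation of the groups and level. PLBD1, a phospholipase-like protein of leukocyte granules, was at 5.32, 2.99 and 4.1 TPM and then at 129, 148 and 148 TPM (log2 fold change 5.77, SE 0.26, adjusted p = 3.27e-07). EVI2A, a membrane protein of blood cells, was at 3.42, 2.22 and 1.71 TPM and then at 77.8, 68.0 and 77.1 TPM (log2 fold change 5.58, SE 0.31, adjusted p = 1.23e-06). CLEC4E, a receptor of macrophages for microbial glycolipids and dying cells, was at 1.72, 1.39 and 2.39 TPM and then at 51.5, 44.9 and 67.0 TPM (log2 fold change 5.48, SE 0.44, adjusted p = 2.41e-05). The rule that chose them required separate ranges. Also among the 15 were the myeloid receptor CLEC5A and the dendritic cell lectin CD207, OCSTAMP, which takes part in fusion of osteoclasts, and the eosinophil-attracting chemokine CCL24, at 120.4, 56.9 and 118 TPM in injured and 0.403, 14.4 and 4.71 TPM in uninjured cords. The vitamin B12 carrier TCN1 went from 1.63, 12.6 and 3.4 to 107, 189 and 119 TPM and the fatty acid carrier FABP1 from 1.22, 0.99 and 2.03 to 45.3, 133 and 43.7 TPM. LEP, the hormone leptin, was listed at 0 in uninjured libraries 1 and 5 and at 7.11 TPM in the unnumbered library, and reached 31.0, 36.2 and 43.8 TPM after injury with the inhibitor (adjusted p = 0.00386). The immunoglobulin joining chain JCHAIN (2.21, 6.92 and 6.59 TPM) and the G protein subunit GNGT2 (7.13, 5.15 and 11.4 TPM) were listed at 0 in all 3 uninjured libraries, so no fold is given for them. ASGR1, PRG2 and MRPL27 complete the 15, and all 15 were called in every fit that left out 1 library. CLEC5A, CD207, OCSTAMP, JCHAIN, GNGT2, ASGR1 and MRPL27 averaged under 1 TPM in uninjured cords. They passed the filter on level only through the injured group and could only be called higher. Of the 15 names, 7 are also axolotl RefSeq symbols, against 82.9% of all names tested, so the identity of several of these genes rests on the human match alone.

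**Figure D2:**
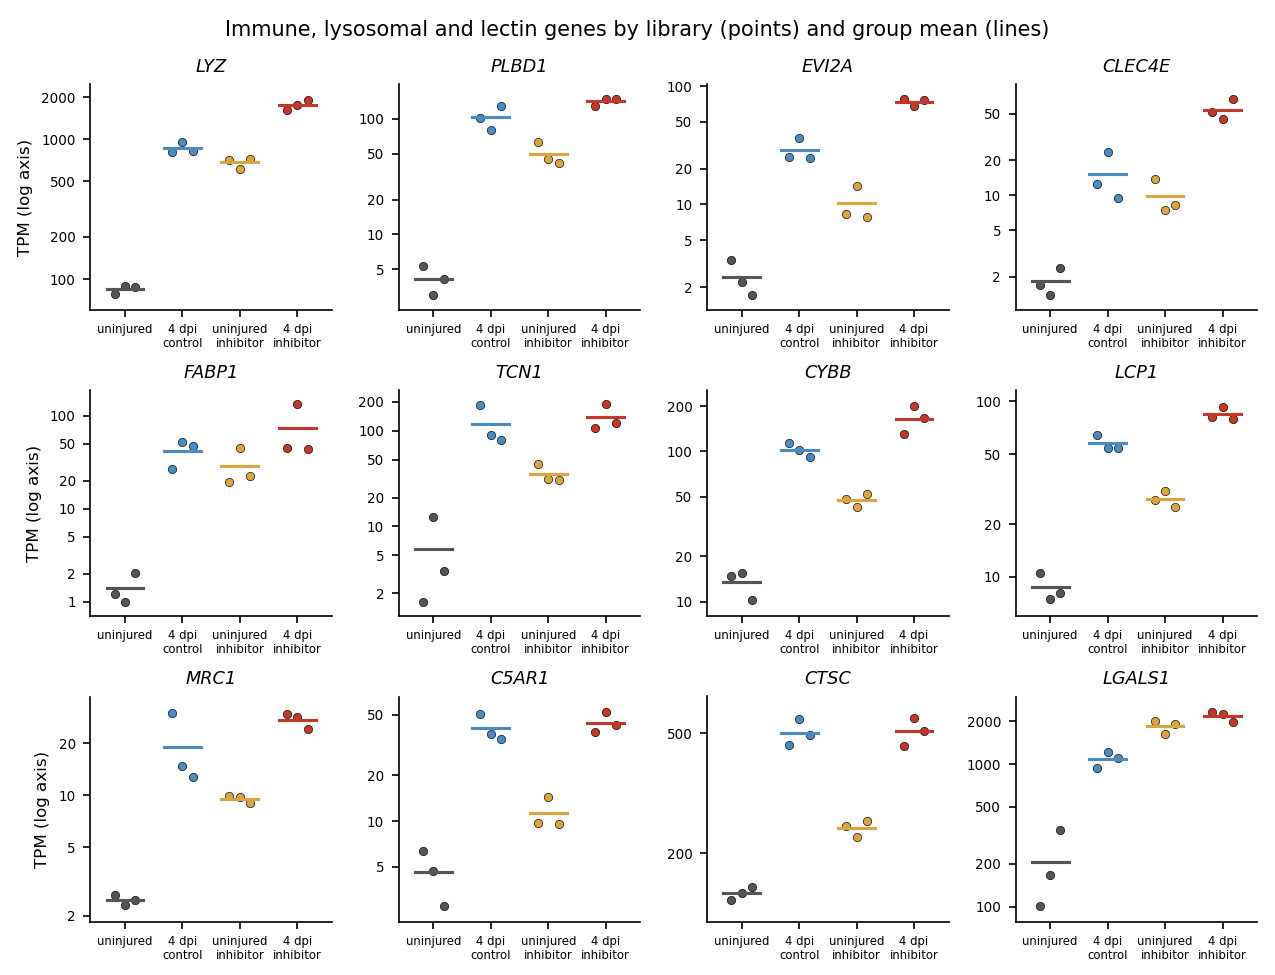
Each panel shows 1 gene, with a point for each of the 12 libraries and a line at the group mean (TPM, log axis; n = 3 libraries per group). In all 12 panels the 3 uninjured libraries lie lowest, and the 4 dpi inhibitor libraries lie above all uninjured ones, as for LYZ and PLBD1.

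Other immune genes moved less uniformly. Of 32 tested lysosomal genes 6 rose (18.8%) and 3 fell (9.38%), with a median of 0.12 scaled, -0.56 as deposited and 0.07 after quantile normalization, and on the scaled values from 0.02 without 4 dpi inhibitor library 6 to 0.24 without the unnumbered uninjured library. Among those that rose were the cysteine proteases CTSL and CTSC, the ceramidase ASAH1, and PSAP, the precursor of the saposins that help degrade sphingolipids. PSAP was at 468, 173 and 372 TPM and then at 1062, 1056 and 1011 TPM (log2 fold change 2.42, SE 0.32, adjusted p = 0.000829), and CTSC at 140.2, 147 and 155 TPM and then at 453, 562 and 509 TPM (2.46, adjusted p = 0.000402). Both showed no overlap. The 3 that fell were GAA, MAN2B1 and NPC1, named after their values were seen, and 0 of them were called without uninjured library 1 or without any single 4 dpi inhibitor library. Of 19 cytokines and chemokines 5 rose (26.3%) and 0 fell (median 0.52 scaled, -0.08 as deposited and 0.97 after quantile normalization, and on the scaled values 0.33 without uninjured library 1 and 1.56 without the unnumbered uninjured library and 0.82 without 4 dpi inhibitor library 7). These were CCL3L3, IL11, IL16 and, named after their values were seen, IL6 and CXCL10. IL11, a cytokine of the interleukin-6 family that signals through gp130, was at 0.228, 1.02 and 0.191 TPM and then at 5.18, 2.94 and 5.23 TPM (log2 fold change 3.75, SE 0.64, adjusted p = 0.003). CCL3L3, a chemokine for monocytes, was at 1.72, 4.19 and 1.64 TPM and then at 11.7, 21.4 and 44.0 TPM (3.88, adjusted p = 0.00159). IL6 was listed at 0 in every uninjured library and at 0.943, 2.72 and 5.61 TPM in 4 dpi inhibitor cords. IL6 and IL11 passed the filter on level only through the 4 dpi inhibitor group, so they could only add to the count that rose. Of 17 complement genes 3 rose (17.6%) and 2 fell (11.8%). C5AR1, the receptor for the fragment C5a, went from 6.41, 4.69 and 2.78 to 38.5, 51.8 and 43.0 TPM (log2 fold change 3.97, SE 0.24, adjusted p = 2.21e-06), the pore-forming C9 from 8.24, 10.9 and 16.0 to 35.5, 37.1 and 30.0 TPM (2.26, adjusted p = 0.00237), and CFB, named after its values were seen, had 1.505 (adjusted p = 0.00963). MASP1, a protease of the lectin pathway, went from 54.7, 9.5 and 15.1 down to 2.77, 2.0 and 2.54 TPM (-2.32, adjusted p = 0.00461), and C2, also named after its values were seen, had -2.20 (adjusted p = 0.0303). The count of 2 complement genes that fell was 1 without uninjured library 1 and without each single 4 dpi inhibitor library. Of 23 interferon response genes 0 rose and 1 fell (4.35%), 4 rose on the scaled values alone (EIF2AK2, GBP2, IFI44L and IFIT5, named after their values were seen), and the single gene that fell, STAT2, held in only 3 of 12 fits that left out 1 library.

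Part of the genes of cell division rose, and 5 of 20 tested brakes on division fell. Of 46 mitosis genes 13 rose (28.3%) and 0 fell, with a median of 0.91 scaled, 0.23 as deposited and 1.03 after quantile normalization. CDK1, the kinase that starts mitosis, was at 43.6, 68.7 and 75.0 TPM in uninjured and at 374, 324 and 301 TPM in 4 dpi inhibitor cords. All 3 injured libraries lay above all uninjured ones by a wide margin (log2 fold change 3.12, SE 0.42, adjusted p = 0.00102). Its small partner CKS2 went from 57.4, 76.4 and 76.6 to 286, 215 and 237 TPM (2.49, adjusted p = 0.00222), the spindle checkpoint protein MAD2L1 from 13.8, 26.1 and 17.1 to 75.1, 60.4 and 65.6 TPM (2.53, adjusted p = 0.00202), and CDCA8, a subunit of the chromosomal passenger complex, from 95.8, 140.1 and 127 to 512, 359 and 316 TPM (2.38, adjusted p = 0.00383). None of them overlapped, and the mitosis genes together held 0.265, 0.296 and 0.225% of TPM in 4 dpi inhibitor cords and 0.154, 0.161 and 0.177% in uninjured cords. Of 35 DNA replication genes 6 rose (17.1%) and 0 fell (median 0.22 scaled, -0.46 as deposited and 0.27 after quantile normalization, and on the scaled values 0.74 without the unnumbered uninjured library and 0.35 without 4 dpi inhibitor library 5). They included PCNA, the sliding clamp of DNA polymerases, which went from 74.5, 127 and 50.4 to 199, 218 and 180.2 TPM (2.02, adjusted p = 0.00383), and GINS3 and GINS2, subunits of the replicative helicase, with log2 fold changes of 2.21 and 1.95. Without uninjured library 5, 3 genes of the list fell. Of all genes of 20 to 50, 50 to 100 and 100 to 500 TPM, 10.7, 16.8 and 28.3% rose. The part of level in the mitosis and DNA replication counts was not tested. Of 20 growth arrest genes 0 rose and 5 fell (25%), with a median of -0.12 scaled, -0.79 as deposited and 0.05 after quantile normalization, so that the sign of the median depends on the scaling, and without the unnumbered uninjured library it was 0.17. On the scaled values alone 2 were higher, and 8 of the 20 lay above 0. SESN1, which restrains growth signaling under stress, went from 229, 258 and 285 down to 59.8, 57.5 and 55.0 TPM (log2 fold change -1.48, SE 0.29, adjusted p = 0.00484). CDKN1C, an inhibitor of cyclin-dependent kinases, went from 490.3, 126 and 185 to 42.2, 64.1 and 47.0 TPM (-1.48, adjusted p = 0.00508), and RPRM, which holds cells before mitosis, from 19.7, 4.93 and 7.6 to 1.17, 1.41 and 0.808 TPM (-2.27, adjusted p = 0.00265). CDKN1B, named after its values were seen, fell too. Without the unnumbered uninjured library, or without any single 4 dpi inhibitor library, 3 of the 5 were called.

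Genes of protein synthesis, respiration and protein degradation rose in large numbers. Of 78 cytosolic ribosomal protein genes 66 rose (84.6%) and 0 fell, with medians of 1.73 scaled, 1.05 as deposited and 0.74 after quantile normalization. Together they held 5.84, 8.36 and 8.33% of TPM in uninjured cords and 15.7, 12.9 and 14.8% in 4 dpi inhibitor cords. The shares did not overlap, and an exact permutation test over the libraries gave p = 0.1, the smallest that 3 against 3 can give (0.167 adjusted over the 40 lists). RPL37A, the most abundant of them, was at 2835, 4306 and 4145 TPM and then at 11143, 7908 and 9986 TPM (log2 fold change 2.05, SE 0.45, adjusted p = 0.00749), and RPL39 at 1394, 1862 and 1731 TPM and then at 5279, 3687 and 4914 TPM (2.15, adjusted p = 0.00455). Of 75 mitochondrial ribosomal protein genes 29 rose (38.7%) and 3 fell (4%) (median 1.001 scaled, 0.32 as deposited and 0.71 after quantile normalization), among them MRPS33, which went from 366, 385 and 429 to 996, 694 and 914 TPM (1.81, adjusted p = 0.00512). MRPL27 moved far more than the rest, from 0.27, 0.357 and 0.68 to 24.5, 7.41 and 21.5 TPM (5.52, adjusted p = 0.000936). The 3 that fell, MRPL11, MRPL2 and MRPS18A, were named after their values were seen, and between 0 and 5 were called when single libraries were left out. Of 75 nuclear genes of oxidative phosphorylation 37 rose (49.3%) and 4 fell (5.33%) (median 1.30 scaled, 0.62 as deposited and 0.45 after quantile normalization). ATP5I, a subunit of ATP synthase, went from 2303, 3359 and 3025 to 7275, 5335 and 6936 TPM (log2 fold change 1.85, SE 0.43, adjusted p = 0.00945), and the cytochrome c oxidase subunit COX7B from 209.7, 272 and 229 to 619, 456 and 567 TPM (1.88, adjusted p = 0.00367). NDUFS8, a subunit of complex I, went the other way, from 124, 120.3 and 90.5 to 30.7, 35.2 and 31.6 TPM (-1.09, adjusted p = 0.00668). NDUFS1, NDUFV1 and SDHA, named after their values were seen, fell too. The count of 37 was 23 without uninjured library 1 and 19 without 4 dpi inhibitor library 5 or 7. Of 36 proteasome genes 17 rose (47.2%) and 2 fell (5.56%) (median 0.91 scaled, 0.23 as deposited and 0.41 after quantile normalization), PSMA4 of the core particle going from 370.0, 429 and 439 to 1247, 922 and 1084 TPM (2.07, adjusted p = 0.0047). The 2 that fell were PSMC6 and PSMD1, named after their values were seen. Of 13 mitochondrially encoded genes 3 were tested and 1 rose, MT-CO1, from 21419, 21028 and 29459 to 57682, 44816 and 53942 TPM (1.81, adjusted p = 0.0269), and its call was lost in 6 of 12 fits that left out 1 library, each of the 6 libraries compared. After quantile normalization 60 cytosolic ribosomal protein genes were higher and 4 lower, 36 and 8 of the mitochondrial ones, 32 and 12 of oxidative phosphorylation, and 17 and 6 of the proteasome. These are abundant genes, and the dependence of change on level given above applies to them.

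Glycolysis, cholesterol synthesis and chromatin genes were followed as further lists, of which glycolysis and chromatin held shares of lower genes near that of all genes. Of 16 glycolytic genes 0 rose and 3 fell (18.8%) (median -0.49 scaled, -1.17 as deposited and -1.06 after quantile normalization). GAPDH was at 853, 759 and 791 TPM in uninjured and at 202, 299 and 222 TPM in 4 dpi inhibitor cords (log2 fold change -1.07, SE 0.26, adjusted p = 0.0116). The muscle isoforms ALDOA, an aldolase, and PFKM, a phosphofructokinase, went from 314, 518 and 326 to 77.4, 88.5 and 91.9 TPM (-1.45, adjusted p = 0.0106) and from 109, 166 and 234 to 40.3, 40.9 and 52.1 TPM (-1.20, adjusted p = 0.0346). All 3 showed no overlap between groups. The count of 3 was 1 without 4 dpi inhibitor library 5 and 6 without the unnumbered uninjured library. Skeletal muscle RNA, given below, moved in the same direction, and its part in the change of ALDOA and PFKM was not tested. Of 22 genes of cholesterol synthesis 0 rose and 6 fell (27.3%) (median -0.73 scaled, -1.40 as deposited and -0.78 after quantile normalization, and on the scaled values -0.46 without uninjured library 1), including the mevalonate kinase MVK (20.6, 8.38 and 11.1 TPM, then 1.98, 4.19 and 2.78 TPM; -1.42, adjusted p = 0.00697) and the decarboxylase MVD (-1.11, adjusted p = 0.0111). The most abundant member, the last enzyme of the pathway DHCR7, was higher on the scaled values (0.92, adjusted p = 0.024) and was not called as deposited (0.24, adjusted p = 0.393). The count of 6 was 3 without uninjured library 1, 3 without 4 dpi inhibitor library 5 and 2 without library 7. Of 48 chromatin regulators 0 rose and 8 fell (16.7%), among them the histone demethylases KDM3B (171, 80.2 and 85.9 TPM, then 33.6, 37.1 and 30.0 TPM; -0.98, adjusted p = 0.00778) and KDM5B (-1.03, adjusted p = 0.0176). That count was 2 to 3 without uninjured library 1 or a single 4 dpi inhibitor library and 5 without the unnumbered uninjured library.

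Genes of neurons and of their synapses fell, and 0 of the members tested rose. Of 33 genes of neuron identity 0 rose and 12 fell (36.4%), with a median of -1.45 scaled, -2.12 as deposited and -1.60 after quantile normalization, and on the scaled values -0.89 without uninjured library 1. The list held 1.7, 0.29 and 0.557% of TPM in the uninjured and 0.177, 0.194 and 0.167% in the 4 dpi inhibitor libraries, so that the groups did not overlap even though uninjured library 1 held several times more than its partners. SLC18A3, which loads acetylcholine into vesicles and marks motor neurons, was at 346, 53.5 and 78.9 TPM in uninjured and at 11.1, 9.22 and 6.99 TPM in injured cords (log2 fold change -2.97, SE 0.50, adjusted p = 0.00287). It was also called without uninjured library 1 (-2.36, adjusted p = 0.00699). RBFOX3, the NeuN antigen of mature neurons, went from 44.1, 18.3 and 6.33 to 1.7, 1.6 and 1.52 TPM (-2.69, adjusted p = 0.0051), the motor neuron transcription factor ISL1 from 23.2, 8.15 and 8.1 to 2.31, 2.95 and 2.51 TPM (-1.45, adjusted p = 0.00474), and the neurofilament NEFM from 2841, 439.9 and 526 to 122, 117 and 118 TPM (-2.19, adjusted p = 0.00888). The ranges of all 4 genes were apart. STMN2, the most abundant member, did not pass (log2 fold change -0.98, SE 0.39, adjusted p = 0.0784), although its 772, 962 and 788 TPM in injured cords lay below all uninjured values. Without uninjured library 1, 8 of the 33 genes fell, and without the unnumbered library 21 did.

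Synaptic and axonal genes were counted in 4 further lists. Of 32 genes of synaptic vesicle release 12 fell (37.5%) and 0 rose (median -1.42 scaled, -2.09 as deposited and -1.40 after quantile normalization, and on the scaled values -0.65 without uninjured library 1). CPLX1, which clamps vesicles until calcium enters, was at 806, 159 and 211 TPM and then at 36.9, 34.8 and 36.8 TPM (log2 fold change -2.37, SE 0.40, adjusted p = 0.00281), with no overlap, and without uninjured library 1 it had -1.86, adjusted p = 0.00485. AMPH, which bends membrane during vesicle recovery, went from 334, 50.4 and 73.0 to 12.4, 12.6 and 10.6 TPM (-2.49, adjusted p = 0.00517). Of 49 neurotransmitter receptor genes 19 fell (38.8%) and 0 rose (median -1.23 scaled, -1.89 as deposited and -1.13 after quantile normalization, and on the scaled values -0.63 without uninjured library 1). Among the members with the smallest p-values were the GABA receptor subunits GABRA5 (44.2, 6.8 and 8.48 TPM, then 0.955, 1.42 and 1.27 TPM; -2.75, adjusted p = 0.00419) and GABRA4 (19.6, 3.33 and 10.7 TPM, then 0.739, 0.949 and 0.753 TPM; -2.66, adjusted p = 0.00331). The share of channel genes that fell was near that of all genes. Of 43 voltage-gated ion channel genes 7 fell (16.3%) and 0 rose (median -0.88 scaled, -1.54 as deposited and -0.71 after quantile normalization, and on the scaled values -0.34 without uninjured library 1 and -1.47 without the unnumbered uninjured library), with KCNAB1, a helper subunit of potassium channels, going from 59.7, 12.8 and 18.2 to 1.72, 1.91 and 2.38 TPM (-2.87, adjusted p = 0.000858) and the axonal potassium channel KCNA1 from 99.1, 42.5 and 24.4 to 6.45, 7.18 and 6.01 TPM (-2.15, adjusted p = 0.00359). Of 51 axon guidance genes 13 fell (25.5%) and 0 rose (median -1.06 scaled, -1.69 as deposited and -0.93 after quantile normalization, and on the scaled values -0.53 without uninjured library 1). DRAXIN, a repellent of commissural axons, went from 311, 70.8 and 75.9 to 24.7, 21.5 and 13.4 TPM (-1.94, adjusted p = 0.00742), the ephrin receptor EPHA5 from 52.0, 8.71 and 14.2 to 2.72, 3.07 and 2.26 TPM (-2.09, adjusted p = 0.00647), and the adhesion molecule CNTN2 from 86.9, 34.0 and 22.1 to 6.44, 7.1 and 7.79 TPM (-1.82, adjusted p = 0.00449). None of these 9 genes overlapped between groups, but they were picked by p, and 41.5% of all genes also lay wholly below. Uninjured library 1 held the largest share of its group in each of these lists, 0.459, 0.0667 and 0.125% of TPM for vesicle release against 0.0435, 0.0372 and 0.0422% in 4 dpi inhibitor cords. Without it, 7 vesicle release genes, 6 receptor genes, 3 channel genes and 4 guidance genes fell. Without the unnumbered library the counts were 22, 29, 15 and 14. Leaving out 4 dpi inhibitor library 5, 6 or 7 gave 8, 6 and 8 receptor genes and 5 guidance genes each, leaving out library 6 or 7 gave 2 and 4 channel genes, and leaving out uninjured inhibitor library 5 gave 8 guidance genes.

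Glial genes split. Of 27 ependymoglial genes 1 rose (3.7%) and 6 fell (22.2%) (median -0.67 scaled, -1.35 as deposited and -0.75 after quantile normalization). GFAP, the intermediate filament of these cells, was at 2335, 449 and 1041 TPM in uninjured cords and at 97.2, 134 and 85.7 TPM in 4 dpi inhibitor cords. Every injured library lay below every uninjured one (log2 fold change -2.63, SE 0.45, adjusted p = 0.00306; without uninjured library 1, -2.24, adjusted p = 0.0112). NES, the intermediate filament nestin of neural progenitors, was the 1 member that rose, from 123, 57.3 and 90.7 to 200.2, 199.5 and 222 TPM (log2 fold change 1.94, SE 0.25, adjusted p = 0.000753). That share of 3.7% is below the 9.21% of all genes that rose, and the identity of NES rests on the human match alone. VIM, vimentin, was at 465, 229.8 and 384 TPM and then at 383, 536 and 427 TPM, was higher on the scaled values (1.04, adjusted p = 0.0114) and was not called as deposited (0.37, adjusted p = 0.279). NDRG2, a gene of resting astrocytes, went from 603, 350.4 and 252 to 60.1, 74.0 and 63.0 TPM (-1.84, adjusted p = 0.00104). The count of 6 was 3 without uninjured library 1 or 4 dpi inhibitor library 6 or 7, and 10 without the unnumbered library. Of 43 motile cilia genes 17 fell (39.5%) and 1 rose (2.33%) (median -1.07 scaled, -1.73 as deposited and -0.93 after quantile normalization). RSPH1, a radial spoke protein, went from 16.0, 9.0 and 6.44 to 1.15, 1.66 and 1.47 TPM (log2 fold change -2.04, SE 0.32, adjusted p = 0.00206), and TPPP3, a tubulin-binding protein of ciliated cells, from 250.0, 49.7 and 101 to 18.4, 14.9 and 17.5 TPM (-1.99, adjusted p = 0.00516), both without overlap. CCDC39, which sets the spacing of repeats along the axoneme, was the 1 that rose, from 21.3, 6.4 and 15.3 to 31.9, 23.0 and 26.6 TPM (1.74, adjusted p = 0.00437), and it lost its call in 4 of 12 fits that left out 1 library (the unnumbered uninjured library and each 4 dpi inhibitor library). The 17 that fell were 9 without uninjured library 1 and 10, 10 and 8 without 4 dpi inhibitor library 5, 6 and 7. With the filter raised to a mean of 5 TPM, 7 genes of the list fell. Of 21 genes of oligodendrocytes and myelin 5 fell (23.8%) and 0 rose (median -1.16 scaled, -1.81 as deposited and -1.08 after quantile normalization, and on the scaled values -0.60 without uninjured library 1). OLIG1, a transcription factor of that lineage, went from 35.8, 3.79 and 8.22 to 1.6, 0.882 and 1.68 TPM (-2.21, adjusted p = 0.0158) and UGT8, which makes the myelin lipid galactosylceramide, from 139, 17.3 and 52.5 to 7.82, 8.66 and 11.9 TPM (-1.74, adjusted p = 0.0202). The others were GPR37 and, named after their values were seen, MAG and NKX6-2. MBP, myelin basic protein and the most abundant member, was at 5699, 498 and 2588 TPM in uninjured and at 732, 566 and 698 TPM in injured cords, with overlap, and did not pass (-0.88, adjusted p = 0.346; without uninjured library 1, -0.29, adjusted p = 0.796). Without uninjured library 1, 0 of the 5 were called on both scales, without the unnumbered library 11 genes were, and without 4 dpi inhibitor library 5, 6 or 7 there were 3, 1 and 2.

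**Figure D3:**
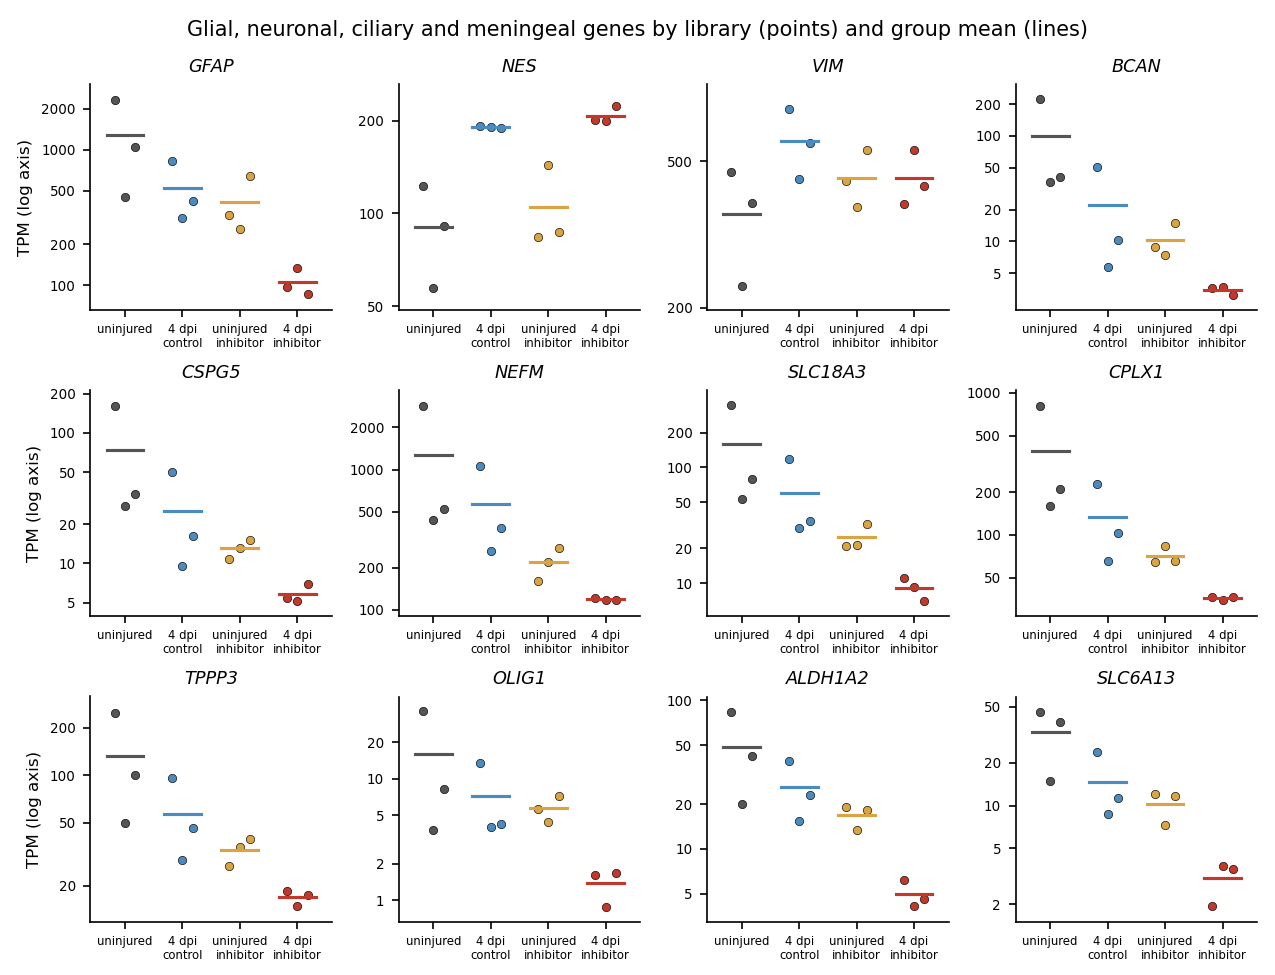
Each panel shows 1 gene, with a point for each of the 12 libraries and a line at the group mean (TPM, log axis; n = 3 libraries per group). In 10 of the 12 panels the 4 dpi inhibitor libraries are the lowest, with GFAP at 97.2, 134 and 85.7 TPM, while NES lies above all uninjured libraries and VIM overlaps them.

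Genes tied to reactive glia and scarring moved in both directions. AP-1 transcription factors are dimers of FOS, JUN, ATF and related subunits that are induced by injury. Of 14 tested 3 rose (21.4%) and 0 fell (median 0.74 scaled, 0.06 as deposited and 0.88 after quantile normalization). ATF3, a marker of injured neurons, went from 0.763, 2.92 and 0.826 to 6.41, 6.83 and 7.52 TPM with no overlap (log2 fold change 3.01, SE 0.50, adjusted p = 0.00282), and BATF3, a factor of dendritic cells, from 0.355, 1.73 and 0.592 to 6.39, 9.93 and 10.4 TPM (3.99, adjusted p = 0.00146). FOS was at 1.62, 2.45 and 0.659 TPM in uninjured and at 2.11, 25.2 and 25.1 TPM in injured cords, where library 5 lay within the uninjured range and libraries 6 and 7 far above it (log2 fold change 3.55, SE 0.85, adjusted p = 0.0108). Its call was lost without uninjured library 1 or 5 and without 4 dpi inhibitor library 6 or 7. JUNB was at 37.8, 347 and 39.0 TPM and at 158, 312 and 339 TPM, with the unnumbered uninjured library above all injured ones, and was called on the scaled values (2.35, adjusted p = 0.0362) and not as deposited (adjusted p = 0.0671). JUN was at 70.8, 63.0 and 32.9 TPM and at 40.9, 78.3 and 59.3 TPM, with overlap, and did not pass (log2 fold change 0.80, SE 0.29, adjusted p = 0.0555). Without the unnumbered uninjured library, 5 AP-1 genes rose and 1 fell. Of 25 genes of reactive astrocytes 8 rose (32%) and 0 fell, with a median of 0.67 scaled, -0.00016 as deposited and 0.65 after quantile normalization, and on the scaled values 0.16 without uninjured library 1 and 0.39 without 4 dpi inhibitor library 7. GFAP, which reactive astrocytes of mammals raise, is not on this list. It was counted among the ependymoglial genes and fell, as given above. LGALS1, galectin-1, which binds glycans on many cells, was at 101, 166 and 346 TPM and then at 2314, 2228 and 1987 TPM (log2 fold change 4.27, SE 0.49, adjusted p = 0.000328). The calcium-binding proteins S100A11 and S100A10 went from 1145, 2473 and 1969 to 6296, 6344 and 6483 TPM (2.52, adjusted p = 0.00462) and from 382, 548 and 517 to 1869, 1731 and 1612 TPM (2.54, adjusted p = 0.00193). All 3 are also made by leukocytes and many other cells, and none overlapped between the groups.

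Of 27 proteoglycans known from glial scars 3 rose (11.1%) and 8 fell (29.6%) (median -0.95 scaled, -1.63 as deposited and -0.91 after quantile normalization, and on the scaled values -0.38 without uninjured library 1). Among those that fell were BCAN and CSPG5. BCAN, brevican of perineuronal nets, was at 225, 36.3 and 40.8 TPM in uninjured and at 3.6, 3.7 and 3.08 TPM in injured cords (log2 fold change -3.62, SE 0.63, adjusted p = 0.00322; without uninjured library 1, -2.97, adjusted p = 0.0108), and CSPG5, neuroglycan C, at 162, 27.3 and 34.0 TPM and then at 5.4, 5.2 and 6.91 TPM (-2.50, adjusted p = 0.00557). The 3 that rose were LUM, DCN and ACAN. LUM, lumican, was at 539, 504 and 1128 TPM and then at 1935, 1968 and 1758 TPM (2.16, adjusted p = 0.00361). DCN, decorin, was at 103, 77.4 and 408 TPM and then at 552, 565 and 634 TPM (2.65, adjusted p = 0.00919). ACAN, aggrecan, named after its values were seen, was at 10.9, 29.0 and 17.2 TPM and then at 73.3, 50.6 and 58.5 TPM (2.44, adjusted p = 0.0301). The ranges of BCAN, CSPG5, LUM, DCN and ACAN were apart. The 3 that rose were 1 without 4 dpi inhibitor library 5 or 7, and the 8 that fell were 5 without library 5. Of 26 collagens 1 rose (3.85%) and 3 fell (11.5%). The fibrillar COL3A1 was at 499, 305 and 421 TPM and then at 1007, 867 and 938 TPM (log2 fold change 1.90, SE 0.28, adjusted p = 0.0016). COL18A1 of basement membranes, at 18.1, 31.1 and 12.8 TPM and then 3.64, 3.93 and 3.6 TPM (-1.68, adjusted p = 0.00988), COL22A1 and, named after its values were seen, COL14A1 were lower. Only 1 of these 3 was called without the unnumbered uninjured library, uninjured inhibitor library 5 or a single 4 dpi inhibitor library, and 6 collagens fell without 4 dpi control library 1. Of 46 genes of matrix remodeling 8 rose (17.4%) and 5 fell (10.9%) (median 0.30 scaled, -0.38 as deposited and 0.25 after quantile normalization). The protease MMP11 went from 2.36, 0.274 and 0.844 to 8.61, 5.37 and 4.67 TPM (3.31, adjusted p = 0.00774), the aggrecan-cleaving ADAMTS5 from 14.99, 8.01 and 12.7 to 25.1, 20.3 and 21.0 TPM (1.61, adjusted p = 0.00383), and periostin, POSTN, from 192, 150.4 and 499.9 to 507, 630.3 and 567 TPM (1.90, adjusted p = 0.0086). These 3 calls were lost in 4, 6 and 5 of the fits that left out 1 library, and with a single library left out 0 to 7 genes of the list rose (0, 1 and 3 without 4 dpi inhibitor library 7, 6 and 5, 3 without uninjured library 1, 4 without uninjured library 5, and 5 without 4 dpi control library 6 or uninjured inhibitor library 5). LOXL1, a cross-linker of elastin, went the other way, from 73.4, 38.4 and 32.0 to 10.5, 10.8 and 10.7 TPM, and was called in every fit that left out 1 library (-1.39, adjusted p = 0.00495). With it fell ADAM23 and, named after their values were seen, MMP15, TIMP3 and TNN, and the count of 5 was 3 without uninjured library 5 or a single 4 dpi inhibitor library.

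The dissected piece can hold other tissues, whose markers were followed alongside. For muscle the share that fell was near that of all genes. Skeletal muscle genes held 1.83, 6.94 and 5.6% of TPM in the uninjured libraries and 1.24, 1.44 and 1.39% in the 4 dpi inhibitor libraries. Of 37 tested 6 fell (16.2%) and 0 rose (median -0.69 scaled, -1.37 as deposited and -1.32 after quantile normalization, and on the scaled values -1.41 without uninjured library 1 and -0.14 without the unnumbered uninjured library), 21 fell without uninjured library 1, the one poorest in muscle RNA, and 4 rose without uninjured library 5. The myosin MYH13 was at 643, 1161 and 2656 TPM and then at 78.2, 115 and 85.3 TPM (log2 fold change -3.10, SE 0.57, adjusted p = 0.00397) and MYH1 at 868, 3348 and 3169 TPM and then at 209, 301 and 198 TPM (-2.50, adjusted p = 0.00845). Of 23 genes of cartilage and notochord 6 rose (26.1%) and 2 fell (8.7%), COL9A1 and COL9A2, named after their values were seen (median 0.11 scaled, -0.56 as deposited and 0.04 after quantile normalization, and on the scaled values from -0.02 without 4 dpi inhibitor library 7 to 0.40 without the unnumbered uninjured library). The 2 that fell were 0 without 4 dpi inhibitor library 6 or 7 and 1 in 5 other fits that left out 1 library. OTOS, otospiralin, was at 14.4, 32.6 and 43.0 TPM and then at 187, 267 and 427 TPM (log2 fold change 4.02, SE 0.59, adjusted p = 0.00169) and the cartilage lectin CLEC3A at 1.35, 8.12 and 4.28 TPM and then at 20.6, 26.7 and 36.5 TPM (3.52, adjusted p = 0.00589), both without overlap, whereas COL2A1, the main collagen of cartilage, was at 204, 284 and 173 TPM and 114, 143 and 170.5 TPM and did not pass (0.06, adjusted p = 0.914; -0.62 as deposited). The 6 that rose were 3 without uninjured library 1 or 4 dpi inhibitor library 6 or 7. Of 20 genes of fibroblasts and meninges 2 rose (10%) and 5 fell (25%). ALDH1A2, which makes retinoic acid in the meninges, went from 83.2, 19.97 and 42.6 to 6.13, 4.13 and 4.59 TPM (log2 fold change -2.38, SE 0.37, adjusted p = 0.00206; without uninjured library 1, -2.07, adjusted p = 0.00735) and the meningeal transporter SLC6A13 from 45.7, 14.8 and 39.2 to 1.95, 3.75 and 3.57 TPM (-2.62, adjusted p = 0.00194), while FAP, a protease of activated fibroblasts, went from 2.78, 8.57 and 6.65 to 16.5, 20.1 and 15.1 TPM (2.301, adjusted p = 0.00525). All 3 were apart between groups. PTGDS, TBX18 and THY1 fell too and DPT rose, the last 3 named after their values were seen. The count of 5 was 3 without uninjured library 1 or 5 or 4 dpi inhibitor library 5 or 7. Of 14 erythroid genes 5 rose (35.7%) and 1 fell (7.14%) (median 0.95 scaled, 0.28 as deposited and 1.12 after quantile normalization, and on the scaled values 0.52 without 4 dpi inhibitor library 7), all 5 that rose being globins and the other ANK1, a protein of the red cell membrane skeleton. ANK1, HBA2 and HBD were named after their values were seen. The contigs matched to HBG2 stood at 306, 188 and 577 TPM and then at 1082, 754 and 2181 TPM (2.59, adjusted p = 0.00823), with injured library 7 the highest, and without that library 1 of the 5 rose. HBG1, HBG2, HBE1, HBA2 and HBD are related genes that the human match can split or merge. Counts were small for skin and keratins (0 higher and 2 lower of 33, 6.06%, KRT7 and KRT8), endothelium (0 and 1 of 20, 5%, ROBO4) and Schwann cells (1 and 1 of 10, 10% each, S100A4 higher and FOXD3 lower). The call of S100A4 was lost in 5 of 12 fits that left out 1 library (uninjured 1 and 5 and each 4 dpi inhibitor library).

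**Figure D4:**
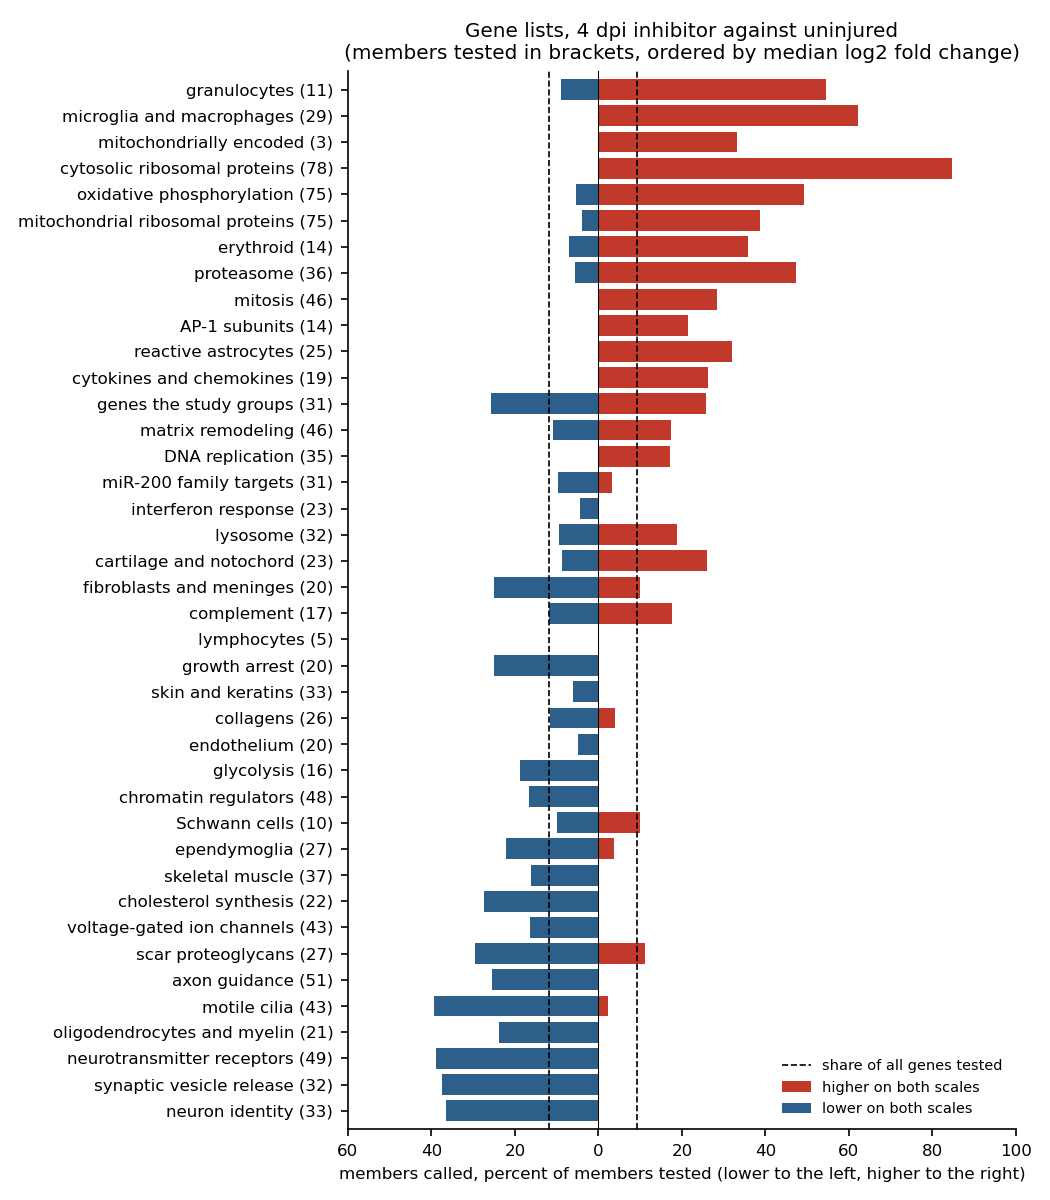
Bars give the percent of the tested members of each of the 40 gene lists that were higher (red, right) or lower (blue, left) on both scales, and dashed lines mark the shares over all genes tested, 9.21% higher and 11.8% lower. Lists are ordered by median log2 fold change, with phagocyte and ribosomal lists at the top and neuronal and synaptic lists at the bottom.

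The 15 largest decreases were chosen by the same rule. NEUROG1, a proneural transcription factor, was at 29.3, 6.21 and 7.44 TPM in uninjured cords and at 0, 1.43 and 0 TPM in 4 dpi inhibitor cords, and its relative NEUROG3 at 13.5, 4.75 and 4.39 and 0, 0 and 0.312 TPM. BCAN and HMX2, a homeobox factor of the developing ear and brain, were also on the list. EEF1A2, the translation elongation factor isoform of neurons and muscle, went from 49.1, 244 and 21.6 to 4.21, 2.46 and 2.78 TPM (log2 fold change -3.66, SE 0.76, adjusted p = 0.00597), and HRC, which binds calcium in the sarcoplasmic reticulum of muscle, from 119, 341 and 228 to 10.7, 9.2 and 10.1 TPM (log2 fold change -3.70, SE 0.56, adjusted p = 0.00191). Both were highest in the unnumbered uninjured library, which also held the most muscle RNA. The lipoprotein APOA1 was at 68.3, 12.6 and 30.7 TPM and then at 0, 3.86 and 2.14 TPM (adjusted p = 0.0113), and MRAP2, a partner of melanocortin receptors, at 23.8, 6.29 and 20.3 and 0.321, 1.86 and 0 TPM (adjusted p = 0.00533). KRT7 (5.39, 22.0 and 8.78 TPM in uninjured cords), ZNF429 (6.92, 9.35 and 3.84 TPM) and RPS27L (5.48, 1105 and 2.28 TPM) were listed at 0 in all 3 injured libraries, so no fold is given. The RPS27L values within the uninjured group spanned a range far wider than that of the other genes named. SLC6A6, MOGAT1, FBXL22 and PRELID3A complete the 15. NEUROG1, NEUROG3, HMX2, MRAP2, KRT7, ZNF429, RPS27L, SLC6A6, MOGAT1 and PRELID3A averaged under 1 TPM in injured cords. They passed the filter on level only through the uninjured group and could only be called lower. The calls of HMX2, FBXL22, MOGAT1, NEUROG1 and SLC6A6 were lost in 1 or 2 of the 12 fits without a library, and 12 of the 15 had at least 1 injured library at 0, so that their fitted decrease depends on the 0.1 TPM added and is not given.

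The same genes were set side by side in the other groups. All 3 contrasts below use the same uninjured libraries, so they are not independent. On the scaled values (limma), 126 of 14067 genes were higher and 10 lower in 4 dpi control than in uninjured cords. In uninjured inhibitor cords 2651 were higher and 2482 lower. Of the 1295 genes that rose, 115 were also higher in 4 dpi control and 1176 in uninjured inhibitor cords. Of the 1653 that fell, 7 and 733 were also lower. The part of the shared uninjured libraries in this overlap was not tested. LYZ stood at 807, 954 and 817 TPM in 4 dpi control and at 715, 614 and 718 TPM in uninjured inhibitor cords, against 1609.6, 1744 and 1906 TPM with both injury and inhibitor. PLBD1 had log2 fold changes over uninjured of 4.65 in 4 dpi control, 4.51 in uninjured inhibitor and 5.77 in 4 dpi inhibitor cords. The macrophage list had medians of 2.25, 1.53 and 2.77 in that order. Ribosomal protein genes had medians of 0.32, 2.14 and 1.73, and held 6.96, 10.4 and 9.6% of TPM in 4 dpi control and 16.8, 14.5 and 17.1% in uninjured inhibitor cords. For OTOS and MRPL27 the values in that order were -0.21, 3.96 and 4.02 for OTOS and 0.64, 5.94 and 5.52 for MRPL27. CDK1 had 1.08 (adjusted p = 0.39), 2.93 (adjusted p = 0.00208) and 3.12. In the reverse direction, GFAP had -1.07, -0.48 and -2.63, and SLC6A13 -1.12, -0.62 and -2.62, with no call for either gene in the first 2 groups. Motile cilia genes had medians of -0.26, -0.66 and -1.07 and neurotransmitter receptors of -0.85, -0.76 and -1.23.

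**Figure D5:**
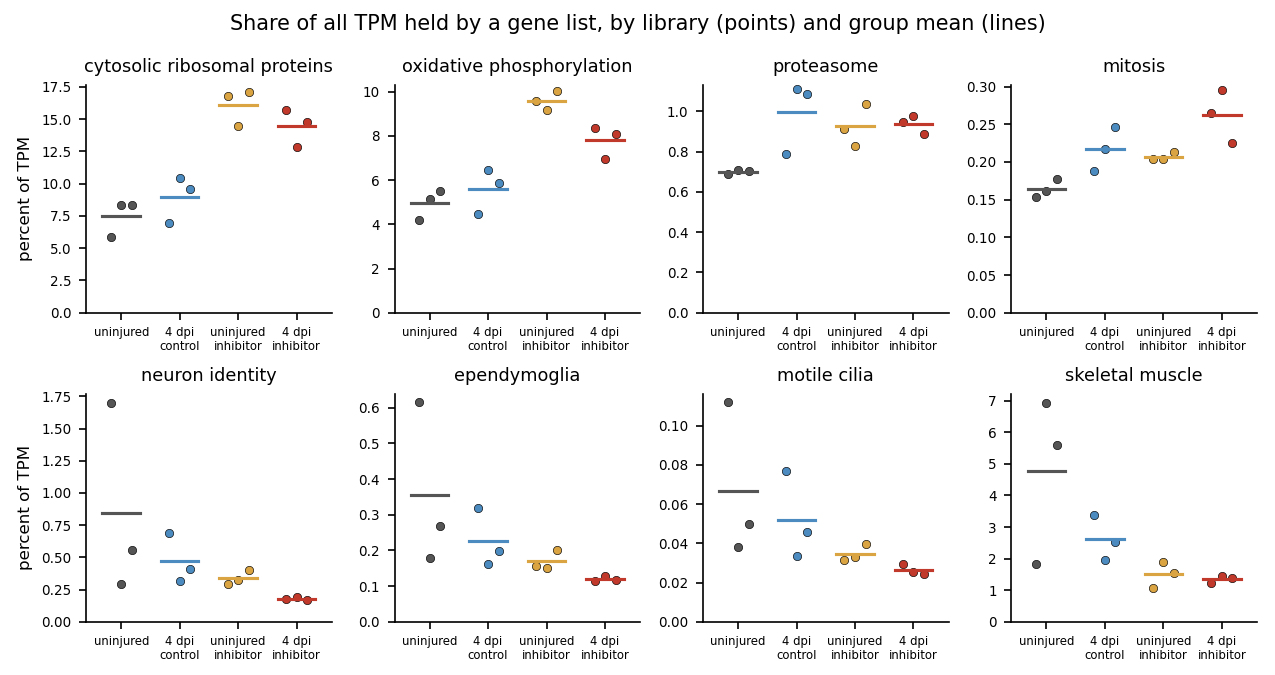
Each panel gives the percent of all TPM held by the genes of 1 list, with a point per library and a line at the group mean (n = 3 libraries per group; axes start at 0). Ribosomal protein genes hold 15.7, 12.9 and 14.8% in 4 dpi inhibitor cords and 5.84, 8.36 and 8.33% in uninjured cords, and neuron identity genes 0.177, 0.194 and 0.167% and 1.7, 0.29 and 0.557%.

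The 4 dpi inhibitor libraries were also tested directly against each of those groups. Against uninjured inhibitor cords, which shared the inhibitor but not the injury, 113 genes were higher (0.803%) and 64 lower (0.455%) on the scaled values (limma), and 71 (0.505%) and 3 (0.0213%) as deposited, so most of the lower calls rest on the scaling. On the scaled values, among the genes named, EVI2A was at 77.8, 68.0 and 77.1 TPM with injury and 8.32, 14.5 and 7.91 TPM without (log2 fold change 2.64, adjusted p = 0.0134), C5AR1 at 38.5, 51.8 and 43.0 and 9.77, 14.5 and 9.56 TPM (1.72, adjusted p = 0.0258) and IL11 at 5.18, 2.94 and 5.23 and 0.0603, 0.193 and 0.22 TPM (4.09, adjusted p = 0.0274). The injured values of all 3 lay above the uninjured inhibitor values without overlap. GFAP was lower, at 97.2, 134 and 85.7 TPM against 333, 262 and 639.7 TPM (-2.15, adjusted p = 0.0458), as were ALDH1A2 (-2.03, adjusted p = 0.0375), SLC6A13 (-1.995, adjusted p = 0.0406) and PTGDS, the prostaglandin D synthase of the meninges (-2.14, adjusted p = 0.0274). With 3 genes lower as deposited, these lower calls cannot all hold on that scale. The fall of PTGDS against uninjured cords was called in only 6 of the 12 fits that left out 1 library. Against 4 dpi control cords 0 genes passed on the scaled values (0%), 2554 had an unadjusted p under 0.05, and as deposited 62 were higher (0.441%) and 314 lower (2.23%, limma).

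Genes reported as targets of the miR-200 family in mammals showed no common direction. Of 31 tested 1 rose (3.23%) and 3 fell (9.68%), with a median of 0.18 scaled, -0.50 as deposited and 0.10 after quantile normalization, and on the scaled values from 0.07 without uninjured library 5 to 0.25 without the unnumbered uninjured library. The GTPase RHOA was at 690.1, 490.1 and 676 TPM and then at 889, 964 and 879 TPM (log2 fold change 1.25, SE 0.26, adjusted p = 0.00647). The neuronal tubulin TUBB3 went from 642, 117 and 149.6 to 45.4, 39.5 and 35.6 TPM (-1.81, adjusted p = 0.0119), WASF3, which promotes actin branching, from 25.6, 6.47 and 6.24 to 2.56, 1.78 and 3.23 TPM (-1.34, adjusted p = 0.0399), and the phosphatase CDC25B, named after its values were seen, had -0.63, adjusted p = 0.0471. The ranges of RHOA, TUBB3 and WASF3 did not overlap. The call of RHOA was lost without the unnumbered uninjured library or any single 4 dpi inhibitor library, and 1 gene of the list fell without uninjured library 1, 4 dpi control library 6, uninjured inhibitor library 5 or a single 4 dpi inhibitor library. Of the 31 genes that the study had grouped by function or measured by qRT-PCR 8 rose (25.8%) and 8 fell (25.8%). That list was chosen on these samples and is not independent evidence. Its count of 8 higher was 4 without uninjured library 1 and 5 without 4 dpi inhibitor library 5 or 7. Besides genes given above it held the receptor TLR2 of bacterial lipoproteins, at 5.43, 5.24 and 6.24 TPM and then 11.8, 11.5 and 8.26 TPM (1.54, adjusted p = 0.00351), and the adhesion molecule CHL1 of growing neurites, at 104, 8.4 and 17.9 TPM and then 2.63, 2.67 and 2.6 TPM (-2.54, adjusted p = 0.0379). These calls were lost in 3 and 6 of the fits that left out 1 library, both of them without uninjured library 1 among others. FN1, fibronectin, at 40.3, 25.6 and 26.0 and 31.8, 30.2 and 23.5 TPM, and MMP2, at 83.6, 98.8 and 63.1 and 83.5, 91.1 and 88.2 TPM, overlapped between groups and did not pass (0.59, adjusted p = 0.144 and 0.80, adjusted p = 0.0694), and FN1 had -0.08 as deposited.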

How the data were processed

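RNA of 12 pooled samples was sequenced. The authors assembled the pooled reads de novo with Trinity, removed shorter contigs wholly identical to part of longer ones, named contigs by their best BLASTX match among human proteins, aligned reads with Bowtie 0.12.1 and estimated counts with RSEM 1.1.6. The deposited values are TPM per human symbol, made by the authors from estimated counts summed per symbol and divided by effective length. The authors tested counts with DESeq2 1.16.1, and their comparisons were not used. Counts and depths were not analysed here. A total of 25 symbols that had become dates were restored.

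TPM were tested with limma 3.58.1 (R 4.3.3) on log2(TPM / library factor + 0.1) and on log2(TPM + 0.1) over all 12 libraries, with 4 group terms, 8 residual degrees of freedom and a variance trend, on genes averaging 1 TPM or more over the 6 libraries compared. The library factor is the median over genes of the ratio to the geometric mean. P-values were adjusted by Benjamini-Hochberg, and a gene under 0.05 in both fits in the same direction was a call on both scales. The procedure was tested on simulated data. Named genes are the 15 largest called changes per direction with separate ranges and 5 TPM or more in the group with the higher level, up to 3 called members per list by p with its most abundant member, and genes that the study grouped. Members and the 40 gene lists were chosen with earlier results of these data known, and other genes are said to be named after their values were seen. Shares of TPM were compared by an exact two-sided permutation test. Alternatives were quantile normalization, other pseudocounts, filters, thresholds and models, a replicate block, and each library left out in turn. Figures were drawn with matplotlib 3.10.9. Some genes that the rules would name are not reported here.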

Additional observations from a re-analysis of the deposited data

How the results depend on the processing

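The counts of changed genes depended on the scaling and on the libraries. As deposited, 1295 genes were higher and 4318 lower, against 2293 and 1653 on the scaled values, because the library factors shift all genes by about 0.67 on the log2 scale. With only the 6 libraries compared, which leaves 4 residual degrees of freedom, 970 genes were lower on the scaled values and 970 on both scales. A replicate block gave 874 lower on each of these, but the compared groups share only the number 5 (correlation of deviations -0.05). Under the block, motile cilia genes that fell went from 17 to 4 (11 with only the 6 libraries, 7 with a filter at 5 TPM) and skeletal muscle genes from 6 to 0. Erythroid genes that rose went from 5 to 0 and mitochondrial ribosomal protein genes from 29 to 17. Other lists gained calls, such as macrophage genes that rose (18 to 21) and myelin genes that fell (5 to 7). The libraries numbered 1 of the uninjured and 4 dpi control groups had a correlation of 0.52. What the numbers stand for is not known, and the 4 dpi inhibitor group has no library numbered 1. With single libraries left out, the scaled counts ranged from 1429 to 2553 higher and from 783 to 2036 lower, the deposited counts from 810 to 1382 higher and from 1989 to 5190 lower, and the counts on both scales from 789 to 1382 higher and from 783 to 2036 lower. The low ends came without 4 dpi inhibitor library 7. Counts also moved by over 1.5 times without library 5, for genes lower without library 6, and as deposited without uninjured library 1 (2478 lower). Each of these fits leaves a group of 2. The fit without the unnumbered uninjured library does so too, and gave 2521 higher and 2036 lower on the scaled values. The cause of these shifts was not tested. Under quantile normalization, a pseudocount of 1, other filters, no variance trend, an adjusted p under 0.1, a fold change over 2, and without both libraries numbered 1 (chosen after seeing the data), counts over all genes stayed within 1.5 times. No named gene called on both scales reversed its direction in any of these, whereas some that were not called did (CD2, FN1 and COL2A1 were below 0 as deposited and above 0 scaled). Library weights were not run, since their estimate did not converge. Depth is unknown, so counting error is not covered, and changes of genes near 0 TPM are imprecise.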
